A study of Mus musculus with 12 samples.

Results

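The calcium pump ATPases are the enzymes that spend ATP to move Ca2+ out of the cytosol, and 8 of their genes were followed across lenses of 4 *Trpm3* genotypes. The members were chosen by gene symbol from the 55487 gene identifiers of the count table: the plasma membrane pumps *Atp2b1*, *Atp2b2*, *Atp2b3* and *Atp2b4*, the sarco-endoplasmic reticulum pumps *Atp2a1*, *Atp2a2* and *Atp2a3*, and the Golgi pump *Atp2c1*. Each symbol matched 1 identifier. Only 4 of the 8 members (*Atp2b1*, *Atp2b4*, *Atp2a2* and *Atp2c1*) passed the filter on low counts, as did 8984 genes in all. That filter asked for 5 CPM or more in 3 or more libraries, where CPM is the count of a gene scaled to a fixed library total. The other 4 were described from their counts.

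Poly-A RNA of lenses from mice aged 7 days (P7) was sequenced as 12 libraries, 3 each from wild-type mice, *Trpm3*-KO mice, heterozygous *Trpm3*-mutant mice (*Trpm3*-I/M) and homozygous *Trpm3*-mutant mice (*Trpm3*-M/M). *Trpm3* encodes a Ca2+-permeable cation channel. The I/M and M/M lines carried a knock-in missense change from isoleucine to methionine in the endogenous gene, and the KO line carried a reporter cassette inserted into *Trpm3* by homologous recombination, an allele from which fusion transcripts can still be made, and all lines were kept on the B6J background. Each library was said to combine lenses of both sexes, 4 from males and 4 from females, so it averages over animals, and the study's question for these libraries was how a mutant channel, as opposed to a missing one, changed lens gene expression.

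Cells hold cytosolic Ca2+ far below the level outside, and they do it with pumps in different membranes. The plasma membrane Ca2+ ATPases (PMCAs) expel Ca2+ from the cell with high affinity and are activated by calmodulin. The sarco-endoplasmic reticulum Ca2+ ATPases (SERCAs) load the stores from which Ca2+ signals are released, and the secretory pathway pump of *Atp2c1* supplies Ca2+ and Mn2+ to the Golgi lumen. In the lens, a thin epithelium carries out much of the ion transport for a mass of fiber cells that have lost their organelles, and raised lens Ca2+ is a familiar companion of cataract.

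The annotated promoter windows held for the 3 members with the largest fold differences between genotypes differed in GC content. RefSeq promoter windows (250 bases before to 50 after an annotated start, GRCm38.p6) were held for 6 of the 8 members, 10 windows in all, and those of *Atp2b4*, *Atp2b1* and *Atp2a3* are shown because these genes differed most. Capitals mark the GC box GGGCGG, searched on both strands.
*Atp2b4* (chr1:133753698-133753997, minus strand): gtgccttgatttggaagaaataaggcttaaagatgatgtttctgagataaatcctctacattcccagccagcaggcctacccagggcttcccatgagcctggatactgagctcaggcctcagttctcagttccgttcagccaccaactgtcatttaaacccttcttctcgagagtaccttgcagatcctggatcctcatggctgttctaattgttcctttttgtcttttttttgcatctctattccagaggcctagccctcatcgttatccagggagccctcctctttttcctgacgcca
*Atp2b1* (chr10:98914392-98914691, plus strand): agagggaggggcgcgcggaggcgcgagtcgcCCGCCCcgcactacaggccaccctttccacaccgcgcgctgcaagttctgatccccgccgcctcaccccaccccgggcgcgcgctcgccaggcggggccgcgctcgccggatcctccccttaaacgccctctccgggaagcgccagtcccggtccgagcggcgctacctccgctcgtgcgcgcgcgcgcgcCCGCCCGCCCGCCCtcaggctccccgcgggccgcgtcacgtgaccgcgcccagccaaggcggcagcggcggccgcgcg
*Atp2a3* (chr11:72960919-72961218, plus strand): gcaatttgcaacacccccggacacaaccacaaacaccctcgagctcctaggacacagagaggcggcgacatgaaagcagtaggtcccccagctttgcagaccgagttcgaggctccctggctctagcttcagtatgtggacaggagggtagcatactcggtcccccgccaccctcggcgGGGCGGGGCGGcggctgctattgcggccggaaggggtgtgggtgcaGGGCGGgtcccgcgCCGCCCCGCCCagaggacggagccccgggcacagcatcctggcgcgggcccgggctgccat
The *Atp2b4* window had 47.7% GC, 4 CpG and no GC box. It lies inside the gene, whose annotated span on chromosome 1 runs from 133699457 to 133801041 on the minus strand, so the outermost annotated start is upstream of it, and counts per gene cannot tell the starts apart. The *Atp2b1* window had 79.3% GC, 54 CpG and 4 matches to the GC box, and another *Atp2b1* window (chr10:98914902-98915201) also had 79.3% GC, with 45 CpG. The *Atp2a3* window had 68.3% GC, 25 CpG and 5 matches, some of them overlapping. Such windows were not confined to the genes shown: 1 *Atp2c1* window had 73.3% GC, 36 CpG and 4 matches, another 51.7% GC and 0 matches. The *Atp2b2* windows ran from 54.0% to 72.7% GC. Over 32851 promoter windows of the same length the median was 52.7% GC and 7 CpG, and 35.7% held the GC box. The AP-1 site TGANTCA (held by 7.81% of all windows) and the cyclic AMP response element TGACGTCA (1.79%) had no match in any of the 10 windows. The short NFAT core GGAAA (61.3%) had 1 match in the *Atp2b4* window, 1 in the *Atp2b1* window shown and 0 in the *Atp2a3* window.

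The *Trpm3* gene (chromosome 19, 22139046 to 22995410, plus strand) spans the microRNA gene *Mir204* on the same strand. Its product shares a seed, bases 2 to 8 in capitals, with the *Mir211* product.
miR-204-5p: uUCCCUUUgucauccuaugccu
miR-211-5p: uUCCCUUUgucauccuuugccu
The match to this seed, AAAGGGA, was present in the 3′ untranslated regions of *Atp2b1*, *Atp2b4* and *Atp2b3* and not in those of the other 5 members. The sites of the 2 abundant plasma membrane pumps are shown with the match in capitals.
*Atp2b1*, position 1502 of its 3′ untranslated region: acagattagattAAAGGGAtggcg
*Atp2b1*, position 2164: tagggaatagagAAAGGGAaatgt
*Atp2b4*, position 1355: ggaacttcaccaAAAGGGActttg
Among all 3′ untranslated regions at least as long, 30.8% held the match within the length of that of *Atp2b1* (3024 bases) and 59.0% within that of *Atp2b4* (7234 bases). These matches are a description of the letters; mature microRNAs were not measured in these poly-A libraries.

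Depth ran from 56162169 to 82090198 counted reads per library, and 3 counts, the limit that a count of 0 allows, were worth 0.0325 to 0.0630 CPM. That limit covers counting error only. Crystallin transcripts took 61.0% to 63.9% of the counts in wild-type and 49.4% to 51.3% in *Trpm3*-M/M libraries, and CPM values below are scaled with TMM factors unless stated. *Trpm3* itself was at 251 to 285 CPM in wild-type, 89.9 to 99.7 in KO, 370 to 413 in I/M and 469 to 484 in M/M libraries, so the KO libraries were the lowest (log2 FC −1.49 ± 0.06, SE). *Trpm3*-I/M replicate 3 stood apart: *Xist* was at 0.0721 CPM there, against 45.8 to 305 in the other 11 libraries, and *Ddx3y* at 27.2 CPM, against 10.8 to 21.1, so its described pool of both sexes is in doubt, and the main I/M values are given with and without it. All 9 lens fiber markers and all 4 lens epithelium markers were detected in every genotype.

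*Atp2b4*, a plasma membrane pump, showed the largest difference of the family. In wild-type lenses it was at 0.668, 0.525 and 0.634 CPM, and in *Trpm3*-KO lenses at 0.636, 0.525 and 0.301 CPM. In *Trpm3*-I/M lenses the 3 libraries were at 14.3, 13.7 and 12.9 CPM, and in *Trpm3*-M/M lenses at 24.2, 27.8 and 26.8 CPM. The I/M and M/M libraries overlapped neither each other nor the wild-type and KO libraries, which overlapped. *Atp2b4* rose in M/M lenses by 5.42 ± 0.13 on the log2 scale (SE, FDR 4.99e-12), a 42.9-fold difference, and in I/M lenses by 4.47 ± 0.14 (FDR 1.08e-10), 22.2-fold. Without I/M replicate 3 the I/M value was 4.51 (FDR 6.9e-10). In *Trpm3*-KO lenses the log2 FC was −0.32 ± 0.24 (FDR 0.517). These p-values rest on the spread between libraries of a genotype, estimated in 1 fit of all 12 libraries with information shared across genes. With only the M/M and wild-type libraries in the edgeR fit, the *Atp2b4* FDR was 6.97e-09. Scaled by library size only, its M/M rise was 5.93, where the median of all tested genes was 0.50. In bulk RNA more cells of a type cannot be told apart from more RNA per cell.

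*Atp2b1*, the plasma membrane pump found in nearly every tissue, had the next largest rise of the tested members. It was at 4.33, 4.14 and 4.68 CPM in wild-type and at 3.63, 4.49 and 4.17 CPM in KO libraries. The I/M libraries were at 10.9, 11.2 and 10.5 CPM and the M/M libraries at 18.1, 18.4 and 18 CPM. Again, wild-type and KO overlapped and the mutant genotypes overlapped nothing. The rise was 2.05 ± 0.07 in M/M (FDR 6.63e-11, 4.14-fold) and 1.31 ± 0.07 in I/M lenses (FDR 3.36e-08, 2.48-fold). Without replicate 3 the I/M value was 1.33. The KO difference was −0.10 ± 0.08 (FDR 0.585). With library size only the M/M rise was 2.56, where the median of all tested genes was 0.50.

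**Figure D1:**
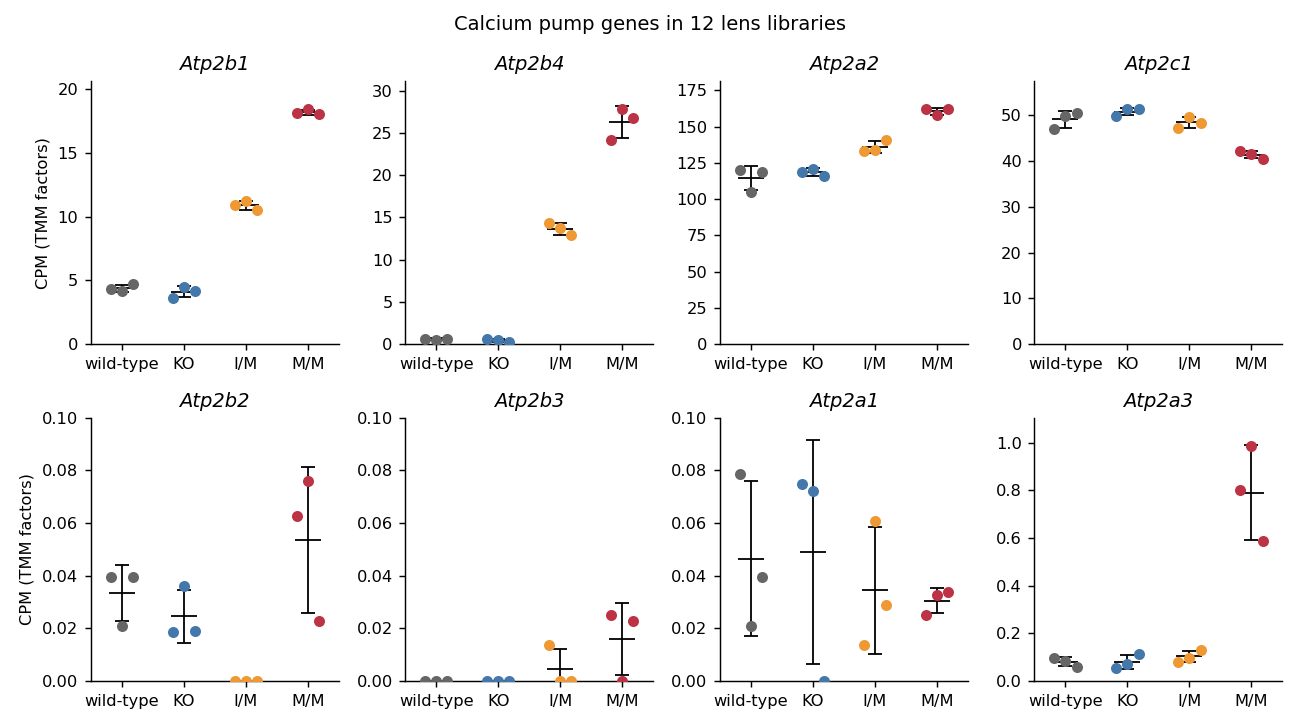
CPM (TMM factors) of the 8 pump genes on linear axes that differ between panels; points are single libraries, and black bars give the mean ± SD of 3 libraries. *Atp2b1* and *Atp2b4* stepped up from wild-type to I/M to M/M with no overlap, while *Atp2b2*, *Atp2b3* and *Atp2a1* stayed at or below 0.0786 CPM in every library.

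Homozygous and heterozygous mutant lenses were also compared with each other. *Atp2b4* was 0.95 ± 0.08 higher on the log2 scale in M/M than in I/M lenses (FDR 1.2e-06) and *Atp2b1* 0.74 ± 0.06 higher (FDR 8.99e-07), or 0.91 and 0.72 without I/M replicate 3. Neither reached FC 2, at 1.93-fold and 1.67-fold, so 0 of the 4 tested members were called at FC ≥ 2 and FDR ≤ 0.05 in this comparison (edgeR; all 4 had an unadjusted p under 0.05, and DESeq2 and the exact test also called 0), against 4.70% of all tested genes. By FDR alone all 4 passed, beside 51.3% of all tested genes. Leaving out M/M replicate 1, the lowest of its group for *Atp2b4*, took that gene to 1.03 and past FC 2. With library size only, *Atp2b4* was at 1.26 and *Atp2b1* at 1.05 and both were called, where the median of all tested genes was 0.31. Without the filter 2 members of low count, *Atp2a3* and *Atp2b2*, were called. The call of *Atp2b2* rested on 0 counts in all I/M and 2 to 7 in M/M libraries. For M/M against wild-type lenses its FDR in that edgeR fit was 0.726.

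The other plasma membrane pumps were near the counting floor. *Atp2b2*, which is best known from hair cells and neurons, had 1 to 2 counts in each wild-type and KO library, 0 in all I/M libraries, and 5, 7 and 2 in M/M libraries. *Atp2b3*, mostly a neuronal pump, had 0 counts in all wild-type and KO libraries, a single count in 1 I/M library, and 2, 0 and 2 in M/M libraries. No fold change is given for them.

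Summed per length, the plasma membrane class changed in size and in makeup. Levels of different genes are compared here as CPM per kb of the union of annotated exons. The class summed to 0.340 ± 0.023 CPM per kb (SD, n = 3) in wild-type, 0.311 ± 0.0261 in KO, 1.83 ± 0.0757 in I/M (1.87 without replicate 3) and 3.35 ± 0.155 in M/M lenses. *Atp2b4* made up 13.5% to 16.0% of that sum in wild-type, 8.18% to 17.8% in KO, 60.2% to 61.9% in I/M and 62.2% to 65.2% in M/M libraries, so the leading transcript passed from *Atp2b1* to *Atp2b4* in both mutants. That order depends on the length used: the exon union of *Atp2b1* is 15218 bases against 7130 for its longest transcript. Per longest transcript *Atp2b4* was 7.75% ± 0.715 of the class in wild-type, 43.2% ± 0.972 in I/M and 46.7% ± 1.76 in M/M lenses, and *Atp2b1* stayed ahead. The shift in share itself was present with either length.

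**Figure D2:**
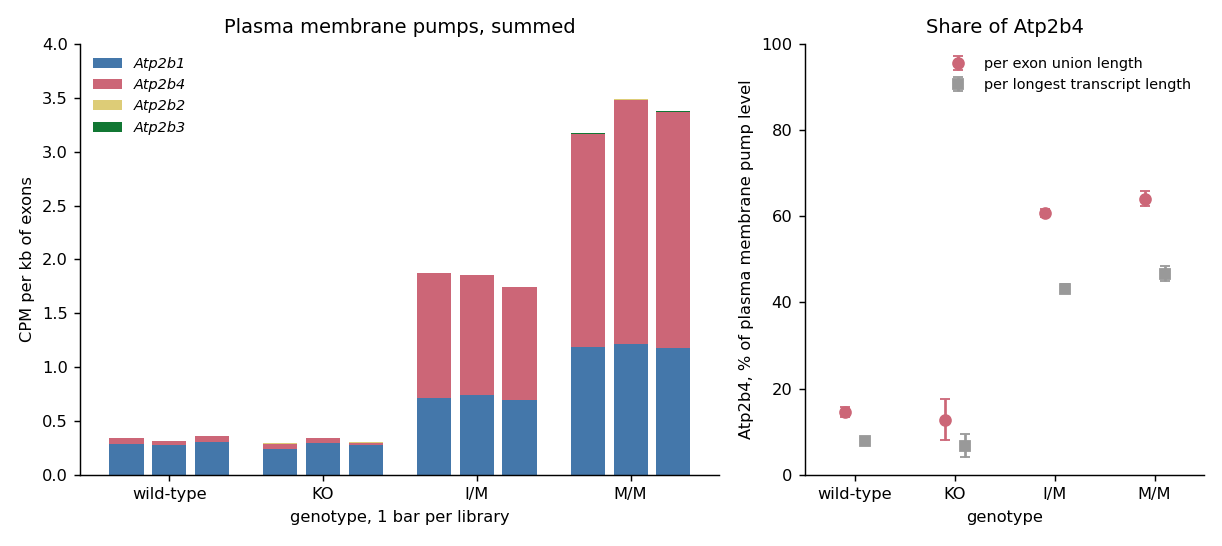
Left, level of each plasma membrane pump in CPM per kb of exon union, stacked, with 1 bar per library; right, share of *Atp2b4* in the summed level in percent, as mean ± SD of 3 libraries, with the length of the exon union or of the longest transcript. The class sum was 0.340 CPM per kb in wild-type and 3.35 in M/M lenses, and the share of *Atp2b4* went from 14.6% to 64.1%, or from 7.75% to 46.7% with the longest transcript.

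Among the SERCA genes, *Atp2a2* was the abundant one and rose by less than FC 2. *Atp2a2* encodes the pump of cardiac muscle and of most non-muscle endoplasmic reticulum. Its level was 120, 105 and 119 CPM in wild-type, 119, 121 and 116 in KO, 133, 134 and 141 in I/M, and 162, 158 and 162 in M/M libraries. The M/M libraries lay above all I/M libraries, which lay above all wild-type and KO libraries. The log2 FC was 0.48 ± 0.05 in M/M (FDR 2.51e-06, 1.40-fold), 0.24 ± 0.05 in I/M (FDR 0.0027; 0.22 with FDR 0.014 without replicate 3) and 0.05 ± 0.05 in KO lenses (FDR 0.680), and M/M exceeded I/M lenses by 0.24 ± 0.05 (FDR 0.00157). With libraries scaled by their size only, the M/M value was 0.99, and the median of all tested genes moved from 0.00 to 0.50.

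*Atp2a3*, the SERCA of platelets, other blood cells and endothelium, was scarce and differed in M/M lenses alone. It had 5, 4 and 3 counts in wild-type, 3, 4 and 6 in KO, 6, 8 and 9 in I/M, and 64, 91 and 52 in M/M libraries, which is 0.800, 0.987 and 0.587 CPM in the last group. The M/M libraries were above all 9 others, which overlapped. It lay under the filter on low counts, and in the fit of all 32253 genes with at least 1 count its log2 FC in M/M lenses was 3.25 ± 0.41 (FDR 4.41e-14), where 7.88% of genes were called higher. Without replicate 3 the I/M mean was 0.0891 CPM in place of 0.103. The I/M value in the fit was 0.36 ± 0.54 (FDR 0.796), and M/M exceeded I/M lenses by 2.90 ± 0.36 (FDR 3.47e-14). *Atp2a1*, the pump of fast skeletal muscle, had 0 to 5 counts in every library, and the skeletal muscle markers summed to 1.15 to 1.86 CPM over all libraries. The counts are estimates that can divide reads between similar genes, so the low values of *Atp2a1* and *Atp2a3* beside *Atp2a2* are uncertain.

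The Golgi pump *Atp2c1* differed little. Its level was 47.0, 49.9 and 50.5 CPM in wild-type, 49.8, 51.3 and 51.3 in KO, 47.2, 49.7 and 48.4 in I/M, and 42.1, 41.6 and 40.5 in M/M libraries. The M/M libraries were below the 9 others. Those of wild-type lenses overlapped both other genotypes, and the I/M libraries lay just below the KO libraries. Its log2 FC in M/M lenses was −0.25 ± 0.04 (FDR 0.000207, TMM factors), which turned to 0.26 (FDR 0.000354) with library size only, where the median of all tested genes was 0.50. In I/M lenses the value was −0.02 ± 0.04 (FDR 0.756; −0.02 without replicate 3), against 0.18 (FDR 0.0115) with library size only, and in KO lenses it was 0.05 ± 0.04 (FDR 0.603). *Atp2c1* overlaps *Aste1* on the opposite strand, a gene with at most 161 counts in any library, and the strand setting of the counting was not given in the sources used here. The nearest paralog *Atp2c2*, which is no member, averaged 0.0393 to 0.196 CPM by genotype.

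Counted over the tested members, 2 of 4 were called at FC ≥ 2 and FDR ≤ 0.05 in M/M against wild-type lenses, both higher, where 8.95% of all tested genes were called, 6.42% higher and 2.53% lower. Both passed the filter only through mutant libraries. Scaled by library size, *Atp2b4* averaged 0.537 and 0.439 CPM and *Atp2b1* 3.85 and 3.72 CPM in wild-type and KO lenses. Being tested thus depended on their rise, and the counts of called members are no separate support for it. The same 2 genes, *Atp2b4* and *Atp2b1*, were called in I/M lenses, where 3.33% of tested genes were called and 2.58% were called higher. In KO lenses 0 of 4 were called, against 0.568% of tested genes. That count of 0 came from edgeR with no member at an unadjusted p under 0.05, and DESeq2 and the exact test called 0 as well. M/M against KO lenses called the same 2 genes, with log2 FC 5.75 ± 0.13 for *Atp2b4* and 2.15 ± 0.07 for *Atp2b1*, where 9.78% of tested genes were called and 64.8% passed by FDR alone, as did all 4 tested members. By FDR alone all 4 tested members passed in M/M lenses, 3 higher and 1 lower, beside 62.7% of all tested genes. *Atp2b4* had the 16th highest log2 FC of 8984 tested genes in I/M and the 60th in M/M lenses, and *Atp2b1* the 174th and the 238th. The libraries of all 4 members did not overlap between M/M and wild-type lenses, nor between M/M and I/M lenses, and 3 did not overlap between I/M and wild-type lenses, where the shares of all tested genes without overlap were 65.2%, 60.5% and 44.6%. All 4 overlapped between KO and wild-type lenses, where 23.2% of tested genes did not. The comparisons with wild-type lenses share those 3 libraries.

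**Figure D3:**
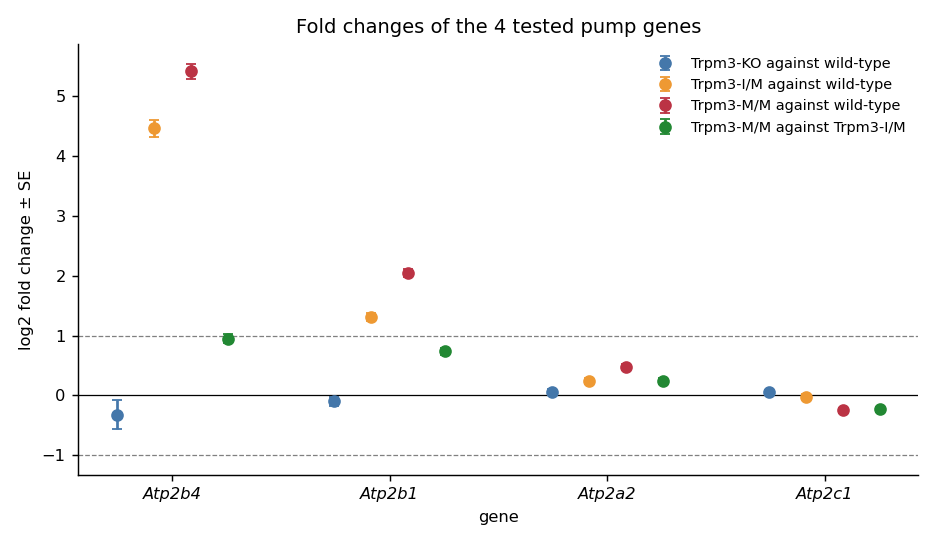
Log2 fold change ± SE of the 4 tested members in 4 comparisons from 1 edgeR fit with TMM factors; dashed lines mark FC 2 in either direction. *Atp2b4* stood at 5.42 in M/M and 4.47 in I/M lenses, *Atp2b1* at 2.05 and 1.31, and the KO values of all 4 genes lay between −0.32 and 0.05; the M/M and I/M values of *Atp2c1* were above 0 with library size only.

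Within each genotype the members kept a steep order per length. *Atp2a2* led in wild-type lenses at 18.9 ± 1.35 CPM per kb (SD, n = 3), followed by *Atp2c1* at 5.07 ± 0.192, *Atp2b1* at 0.288 ± 0.018 and *Atp2b4* at 0.0498 ± 0.00611, and none of these neighbours overlapped. *Atp2a3* and *Atp2a1*, next in order at 0.0153 and 0.0134 CPM per kb, overlapped. The M/M order began with *Atp2a2* at 26.4 ± 0.362, *Atp2c1* at 4.27 ± 0.0841, *Atp2b4* at 2.15 ± 0.153 and *Atp2b1* at 1.19 ± 0.0122 CPM per kb, also without overlap, with the last pair in the opposite order per longest transcript. Plasma membrane pumps together were 1.37% to 1.44% of the summed level of all 8 genes in wild-type and 9.26% to 10.3% in M/M libraries. The Golgi pump went from 19.5% to 22.6% of that sum to 12.2% to 12.7%, while the SERCA class held 76.0% to 79.2% in wild-type and 77.1% to 78.1% in M/M libraries.

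Over the 12 libraries, *Ddb1*, a subunit of a ubiquitin ligase that recognizes damaged DNA, *Etv5*, an ETS transcription factor, and *Chrdl1*, a secreted antagonist of bone morphogenetic proteins, had the log2 CPM patterns most like that of *Atp2b1* (Pearson r 0.997, 0.996 and 0.994, n = 12). *Etv5* averaged 32.1 CPM in wild-type, 32.3 in KO, 79.9 in I/M and 136 in M/M lenses. *Eef2k*, the Ca2+/calmodulin-dependent kinase of elongation factor 2, *Atp5g3*, a subunit of mitochondrial ATP synthase, and *Ppp1r14c*, an inhibitor of protein phosphatase 1, were most like *Atp2b4* (r 0.997, 0.996 and 0.995). *Eef2k* averaged 3.66, 3.10, 10.1 and 13.2 CPM in the same order of genotypes. The r between *Atp2b1* and *Atp2b4* was 0.978. Such values are set by the 4 genotype means, which many genes share: 407 of 8983 other genes had r over 0.95 with *Atp2b1* and 260 with *Atp2b4*.

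The nearest tested genes on either side of the risen pumps, named by position, differed in direction. *Zc3h11a*, 38.1 kb from *Atp2b4*, averaged 10.6 CPM in wild-type and 10.2 in M/M lenses (log2 FC −0.06, FDR 0.748). *Prelp*, 109 kb to the other side and encoding a small leucine-rich proteoglycan, averaged 0.128 CPM in wild-type and 4.25 in M/M lenses and rose by 5.04 (FDR 1.2e-09). *Dusp6*, a phosphatase of ERK kinases 237 kb from *Atp2b1*, rose by 1.99 in M/M lenses (FDR 2.76e-07), with 0.00 in I/M lenses (FDR 0.99). *Prelp* and *Dusp6* averaged below 5 CPM in every genotype but M/M. They were thus tested through their M/M libraries, and their rises follow in part from the filter. *Btg1*, an antiproliferative gene 2290 kb to its other side, fell by 1.08 in M/M (FDR 9.04e-09) and by 0.69 in I/M lenses (FDR 2.77e-06).

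Among 11 other Ca2+ exporters and exchangers, *Slc8a1* was the 1 gene of 5 tested that passed both thresholds in M/M lenses. It encodes a Na+/Ca2+ exchanger that expels Ca2+ at the plasma membrane. *Slc8a1* was at 15.7, 12.3 and 14.7 CPM in wild-type, 13.2, 14.3 and 13.1 in KO, 20.8, 22.9 and 22.1 in I/M, and 47.3, 56.8 and 53.9 in M/M libraries. The rise was 1.88 ± 0.09 in M/M (FDR 7.53e-10) and 0.62 ± 0.09 in I/M lenses (FDR 0.000115; 0.62 without replicate 3), below FC 2. *Slc24a4*, a K+-dependent exchanger and the most abundant gene of the list, went the other way, from 148 to 100 CPM (log2 FC −0.56, FDR 3.71e-07; −0.06, FDR 0.407, with library size only). The median log2 FC of the 5 tested genes in M/M lenses was 0.31, beside 0.00 for all tested genes, of which 8.95% were called. *Slc24a4* and the further genes of these lists that did not reach FC 2 were picked for naming after their values were seen.

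Partners and regulators of the pumps stayed below FC 2. Of 14 genes 10 were tested, and 0 were called in M/M, I/M or KO lenses by edgeR, DESeq2 or the exact test, with 9, 7 and 1 at an unadjusted p under 0.05 in edgeR and 9, 8 and 1 in DESeq2. Over all tested genes the shares called were 8.95%, 3.33% and 0.568%, so 0 of 10 does not set the list apart. By FDR alone 8 were higher and 1 lower in M/M lenses, where 31.4% of all tested genes were higher and 31.4% lower. The median log2 FC was 0.31, or 0.82 with library size only, beside 0.00 and 0.50 for all tested genes. *Calr* and *Canx*, Ca2+-binding chaperones of the endoplasmic reticulum, stood at 0.45 (FDR 5.02e-07) and 0.48 (FDR 1.38e-06). *Bsg* and *Nptn*, which encode subunits of the plasma membrane pumps, stood at 0.34 (FDR 0.000147) and 0.27 (FDR 0.000215). The small SERCA regulators of muscle were close to absent: *Pln*, *Mrln* and *Strit1* averaged at most 0.0202 CPM in any genotype, and *Sln* had no count.

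Genes of Ca2+ release and store-operated entry stayed below FC 2 against wild-type lenses with TMM factors, but not with library size only. Of 16 genes 12 were tested, and 0 were called in M/M, I/M or KO lenses by edgeR, DESeq2 or the exact test, with 10, 7 and 4 at an unadjusted p under 0.05 in edgeR and the same in DESeq2. Over all tested genes the shares called were 8.95%, 3.33% and 0.568%, so 0 of 12 does not set this list apart. By FDR alone 7 were higher and 3 lower in M/M lenses, with a median of 0.26, where 31.4% of all tested genes were higher and 31.4% lower. With library size only, 4 were called higher in M/M lenses, 10 were higher and 0 lower by FDR alone, and the median was 0.77, beside 0.50 for all tested genes. The shares of all tested genes under that scaling are not given here, so these counts do not set the list apart either. *Itpr1*, a receptor that releases Ca2+ from the endoplasmic reticulum, rose by 0.86 (FDR 4.42e-06) from 29.1 to 52.8 CPM, or by 1.37 with library size only. The store-operated channel genes *Orai1* and *Orai3* rose by 0.84 (FDR 6.77e-06) and 0.82 (FDR 1.47e-06), or by 1.35 and 1.33 with library size only, while *Orai2* fell by 0.51 (FDR 2.22e-06), a difference of 0.00 with library size only.

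Of 28 other P-type ATPase genes 15 were tested. Their median log2 FC in M/M lenses was 0.02, or 0.52 with library size only, beside 0.00 and 0.50 for all tested genes. By FDR alone 7 were higher and 3 lower, beside 31.4% and 31.4% of all tested genes. At both thresholds 1 was called, in M/M and in I/M lenses, and 0 were called with M/M replicate 1, 2 or 3 left out. Of all tested genes 8.95% and 3.33% were called in M/M and I/M lenses.

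Markers of blood vessels and macrophages were higher in the mutant libraries too. The 7 vascular endothelium markers summed to 14.8 to 17 CPM in wild-type, 14.2 to 15.2 in KO, 24.3 to 30 in I/M and 57.9 to 71.3 in M/M libraries, and 5 of 6 tested were called higher in M/M and 4 in I/M lenses. Its 2 most abundant genes, *Tek* and *Egfl7*, had log2 FC of 1.05 and 0.06 in M/M lenses (1.56 and 0.57 with library size only). The 7 pericyte and smooth muscle markers summed to 74.1 to 90.2 CPM in wild-type, 66.1 to 72.0 in KO, 97.6 to 124 in I/M and 234 to 326 in M/M libraries, with 4 of 5 tested called higher in M/M and 2 in I/M lenses, *Acta2* by 1.63 in M/M and *Pdgfrb* at 0.50. Over all tested genes 6.42% were called higher in M/M and 2.58% in I/M lenses. Most called genes of these 2 lists, among them *Vwf* and *Rgs5* (0.896 and 0.507 CPM in wild-type), passed the filter only through mutant libraries. Their calls are thus no separate support for the rise. The 5 macrophage markers summed to 0.377 to 0.433 CPM in wild-type, 0.289 to 0.374 in KO, 0.668 to 0.755 in I/M and 6.28 to 12.9 in M/M libraries, with none at 0 in any genotype. *Csf1r* and *C1qb* averaged 0.189 and 0.0399 CPM in wild-type and 3.38 and 1.89 in M/M lenses.

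The step from I/M to M/M set the pumps beside these markers. The I/M mean of *Atp2b4* exceeded wild-type by 50.6% of the M/M excess, that of *Atp2b1* by 47.1% and that of *Atp2a2* by 46.2%. The same measure was 25.9% for the summed endothelium markers, 14.9% for pericyte and smooth muscle, 3.61% for macrophages and 3.10% for *Atp2a3*. Without I/M replicate 3 these were 52.1%, 48.4% and 41.0% for the pumps, and 23.9%, 18.5%, 3.74% and 1.19% for the rest. Single markers could differ from their sum: *Tek* averaged 5.70 CPM in wild-type, 12.5 in I/M and 11.8 in M/M lenses. The part of these cells in the pump levels was not tested.

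**Figure D4:**
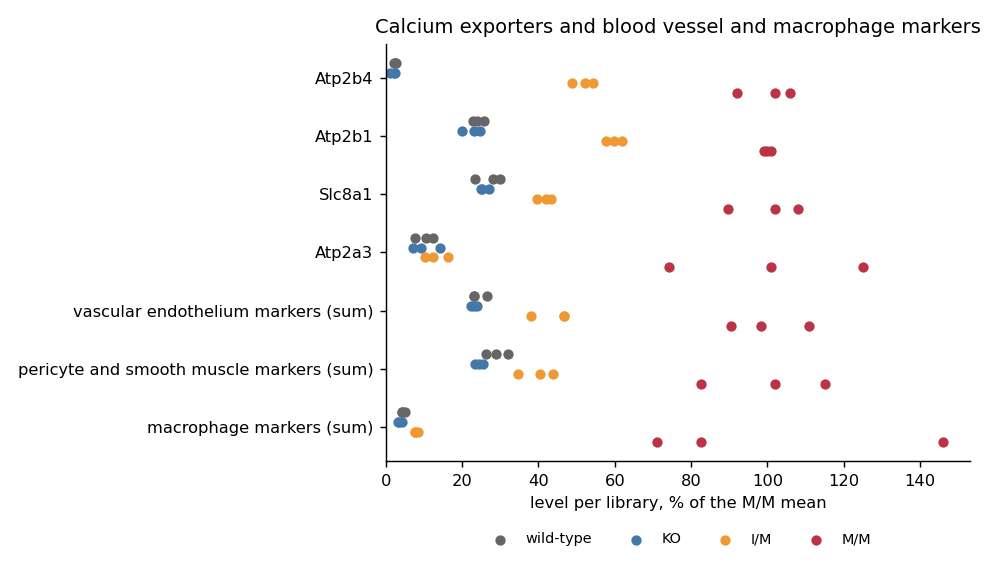
Level in each library as a percent of the *Trpm3*-M/M mean of the same gene or marker sum, from CPM with TMM factors on a linear axis, with 1 point per library colored by genotype. The I/M libraries of *Atp2b4* and *Atp2b1* lie near the middle of their range, those of *Atp2a3* and of the macrophage markers lie next to the wild-type libraries.

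Further marker lists were summed in the same way. Lens fiber markers summed to 137000 to 153000 CPM in wild-type and 85400 to 89500 in M/M libraries, with 1 of 9 called lower and all 9 lower by FDR alone (*Cryba1* −0.69, *Crybb1* −0.63; −0.17 and −0.12 with library size only). Lens epithelium markers summed to 262 to 297 CPM in wild-type and 149 to 154 in M/M libraries, with 1 of 4 called lower (*Foxe3* −2.24, *Pax6* −0.62; −1.73 and −0.11 with library size only). Over all tested genes 2.53% were called lower in M/M lenses and 31.4% were lower by FDR alone. The platelet markers summed to 0.413 to 0.753 CPM in wild-type and 1.29 to 1.76 in M/M, the photoreceptor markers to 0.693 to 0.892 and 1.56 to 4.25, the inner retina neuron markers to 3.17 to 4.39 and 7.91 to 9.08, and the cornea markers to 0.236 to 0.436 and 3.60 to 6.34, most of the last from *Aldh3a1*. Those of pigmented cells, 0.987 to 1.15 and 1.04 to 1.38, and of red blood cells, 1.22 to 11.9 and 12.4 to 15.0, are the remaining lists. No gene of these last 6 lists passed the filter on low counts except 1 red blood cell gene.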

How the data were processed

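Per the labels and the study's methods, the authors poly-A selected lens RNA, prepared TruSeq libraries, and used bcl2fastq, DRAGEN and edgeR with an Ensembl annotation of the mm10 build. The authors deposited estimated counts per gene (not normalized, replicates not pooled), 88.4% of them whole. Counts were expected to be whole, so the estimated counts were rounded. A second deposited table holds counts equal to these, CPM, and the authors' fold changes and p-values, which were not used. Repeated identifiers (168) held equal values and were used a single time. The members and lists were chosen with earlier results of these data known.

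Genotypes came from the labels. Genes with CPM ≥ 5 in ≥ 3 libraries (8984 of 32253 with a count) entered 1 edgeR 4.0.16 quasi-likelihood fit of 12 libraries with TMM factors (R 4.3.3), adjusted by Benjamini-Hochberg within each comparison and called at FC ≥ 2 and FDR ≤ 0.05. SEs derive from the fold change and F statistic. Named genes are all members, *Trpm3*, list genes past both thresholds, the 3 genes most like each called member (Pearson r of log2 CPM, prior count 2), and the 2 most abundant markers per list; others are marked. Alternatives were other scalings, DESeq2 1.42.0, the exact test, glmTreat, other filters, compared libraries only, a replicate block and 12 fits leaving out 1 library. The fit was tested on simulated data. Lengths and positions are GENCODE GRCm38, matched by identifier, and sequences are RefSeq GRCm38.p6. Depth was 56162169 to 82090198 counts per library. Some genes of the lists are not reported here.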

Additional observations from a re-analysis of the deposited data

How the results depend on the processing

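Of 440 log2 fold changes of the 4 tested members under 22 alternatives in 5 comparisons, 431 kept their direction and their call at both thresholds, counting FDR ≤ 0.05 as the call of glmTreat. *Atp2c1* reversed with library size only, at 0.26 in M/M against wild-type, 0.18 in I/M against wild-type, 0.08 in M/M against I/M and 0.16 in M/M against KO lenses, where the median of tested genes moved by 0.50, 0.20, 0.31 and 0.46. Values near 0 also changed sign: *Atp2c1* in I/M lenses was 0.00 without a filter, and *Atp2a2* in KO lenses was −0.01 without wild-type replicate 2 (FDR 0.95). M/M against I/M lenses called 2 members with library size only, 2 without a filter (*Atp2a3* and *Atp2b2*), and 0 to 1 with a library left out (1 without M/M replicate 1). The *Atp2b2* call rested on 0 to 7 counts per library. The shares of all genes called in M/M against I/M lenses under these settings are not given here. By FDR alone 4 members passed in M/M against wild-type, 4 against I/M and 4 against KO lenses, beside 62.7%, 51.3% and 64.8% of all tested genes.

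In M/M against wild-type lenses, FDR alone gave 9 pump partners, 5 exporters, 10 release and entry genes and 10 other P-type ATPases, beside 62.7% of all tested genes. Library size only gave 2 exporters, 4 release and entry genes and 3 other P-type ATPases, where the median log2 FC of all tested genes was 0.50. No filter gave 2 exporters and 5 other P-type ATPases, where 7.88% of all genes were called higher. A CPM of at least 1 gave 3 other P-type ATPases. The shares of all genes called with library size only or that last filter are not given here, so these counts do not set the lists apart. The count of other P-type ATPases ranged from 0 to 1 with a library left out. It was 0 without M/M replicate 1, 2 or 3, where the called gene no longer passed the filter.

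The class sums in CPM per kb moved with library size only to 0.299 (plasma membrane) and 16.6 (SERCA) in wild-type and to 4.18 and 33.1 in M/M lenses. With the longest transcript they were 0.670 and 20.3 in wild-type and 4.80 and 28.5 in M/M lenses, and the *Atp2b4* share was 7.75% and 46.7%. By Spearman's rho, 0 of the 3 genes most like *Atp2b1* and 0 of those most like *Atp2b4* were shared with the Pearson lists.

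With the replicate number as a block, 2, 2 and 0 members were called in M/M, I/M and KO against wild-type lenses, with *Atp2b4* at 5.42 and *Atp2b1* at 2.05 in M/M. The numbers did not pair the libraries: over 18 same-numbered pairs, deviations from genotype means correlated between −0.264 and 0.149. Depth limits *Atp2b2*, *Atp2b3* and *Atp2a1*, which had 0 to 7 counts per library.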
